A study of Mus musculus with 3 samples.

Results

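The choroid plexus epithelium (CPE) is the sheet of epithelial cells that makes cerebrospinal fluid in the brain ventricles, and its cells are held to each other by cadherins, nectins and desmosomes. The genes of these junctions were followed in the CPE of 3 mice. They were chosen by their names in the scanner files: the cadherins, protocadherins, seven-pass cadherins (Celsr), catenins, desmogleins (Dsg), desmocollins (Dsc), plakophilins (Pkp), nectins (named Pvrl on this array), plakoglobin (*Jup*) and desmoplakin (*Dsp*). These were 99 genes with 177 probes, of 27845 gene or accession names with 41174 probes on the array.

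The samples were 3 healthy adult C57BL/6 mice, with no treatment and no altered gene. Cells of the CPE were cut with a laser out of stained cryosections, so each sample is a dissected cell layer and not a sort of single cells. Their amplified RNA carried the red dye, Cy5, and was hybridised to an Agilent 2-colour array against 1 common reference RNA in the green dye, Cy3, which came from RPE (the pigment epithelium under the retina) with choroid of the same strain. The dyes were not swapped, so a preference of a probe for a dye cannot be told apart from a difference between the tissues. In bulk RNA of this kind, fewer cells of a type and less RNA per cell cannot be told apart either.

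In an adherens junction, a cadherin of one cell binds a cadherin of the next, and inside the cell its tail binds beta-catenin or plakoglobin, which bind alpha-catenin and through it the actin filaments. A desmosome has the same plan with desmogleins and desmocollins, whose tails bind plakoglobin, plakophilins and desmoplakin, and through these the keratin filaments. Nectins start such contacts and bind actin through afadin, seven-pass cadherins align cells and their cilia within the sheet, and protocadherins are best known for cell recognition in the nervous system.

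The arrays differed in how many of these probes stood well above background. For CPE the numbers were 106, 75 and 151 of the 177 probes in mice 1, 2 and 3, or 59.9%, 42.4% and 85.3%. Over all 41174 probes these shares were 58.5%, 46.0% and 85.6%. In the reference channel, 138, 133 and 160 of the 177 probes were well above background. In CPE, 71 probes of 48 genes passed on each of the 3 arrays, and 51 genes had no such probe. Of 10 marker genes of CPE, all lay above the 90th percentile of the array, and 9 were higher in CPE than in the reference (median log2 ratio 3.23), among them *Kl* at 5.42. Markers of the reference tissue ran the other way, with 8 of 9 RPE and melanocyte genes lower (median −5.26) and 6 of 6 photoreceptor genes lower (median −4.81).

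The level of a gene in CPE is given as its percentile among all probes of the array, from the mean of the 3 mice, with the classes high (over 90), moderate (50 to 90), low (10 to 50) and very low (under 10). Because probes bind unequally well, percentiles of different genes are no measure of which transcript is more abundant. The difference between tissues is given as the log2 ratio of CPE over reference, in which 1 is a doubling, with its standard error (SE) over 3 mice. It was called when limma's adjusted p was under 0.05 and the mean difference at least 2-fold.

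The high class of CPE held catenins, desmoplakin and a single classical cadherin. In it were 9 of the 177 probes (5.08%, against 10% of all probes), and these belonged to 6 genes, which were alpha-catenin *Ctnna1*, beta-catenin *Ctnnb1*, the catenin relative *Ctnnal1*, *Dsp*, the cadherin *Cdh11* and a protocadherin probe pair named *Pcdhga9*. Another 71 probes were moderate, 84 low and 13 very low, and the median lay at the 46.3rd percentile. By role, the median was highest for the catenin relatives (83.6, 7 probes) and the desmosomal plaque (80.0, 9 probes), followed by the nectins (64.5, 8 probes) and the seven-pass cadherins (63.5, 6 probes). It was lowest for the desmosomal cadherins (30.6, 18 probes) and the non-clustered protocadherins (37.7, 27 probes). The lowest of the 9 high probes lay at 91.0 (*Cdh11*) and the brightest probe under the limit at 88.8 (*Pkp4*). With the ranking limited to the 71 probes well above background in CPE of all mice, set among all such probes, 6 stayed high, and *Cdh11* and *Dsp* did not. With 1 probe per gene *Dsp* stayed high and *Cdh11* did not. Each mouse on its own placed 9, 10 and 9 of the probes above the 90th percentile.

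**Figure D1:**
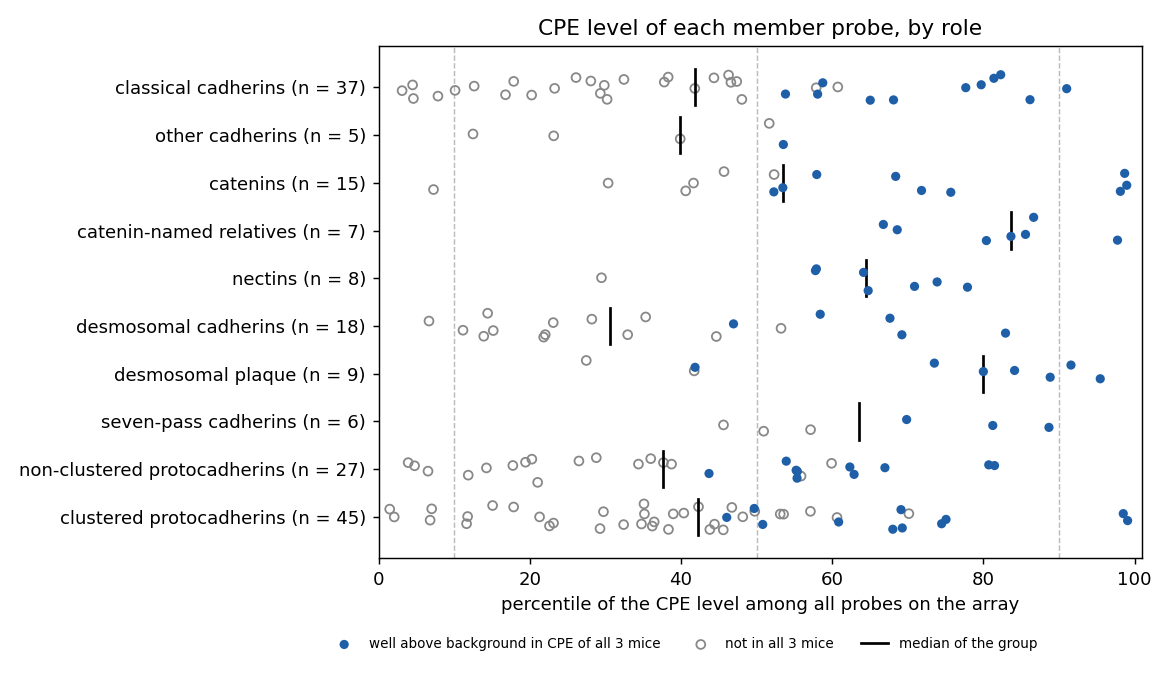
Percentile of the CPE level (mean of 3 mice) of each of the 177 probes among all probes on the array, grouped by role, with dashed lines at the limits of the expression classes. Filled points were well above background in CPE of all 3 mice, open points were not, and black bars are group medians. The 9 points beyond the right dashed line are the high class, and the catenin relatives and desmosomal plaque have the 2 highest medians, at 83.6 and 80.0.

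Against the reference, more of these probes were lower in CPE than higher. Of the 177 probes, 128 of 80 genes had enough signal to be tested. Of these, 10 probes of 8 genes were higher (7.81%, against 7.09% of all probes tested) and 25 probes of 18 genes were lower (19.5%, against 10.2% of all probes tested). The other 93 did not pass, and 23 of them had an adjusted p under 0.05 with less than 2-fold. The median log2 ratio of the 128 probes was −0.22, beside −0.04 over all 25840 probes tested. Higher in CPE were *Celsr1*, *Celsr2*, *Dsg2*, *Jup*, *Pvrl2*, *Pcdh7*, *Pcdh12* and the *Pcdhga9* pair. The 10 higher probes had a positive ratio in each of the 3 mice and the 25 lower probes a negative one. Among the 10, the ratio of mouse 3, the array with the most probes above background, was the nearest to 0 in 8, and among the 25 it was nearest in 13. A probe could be tested on signal in either channel, and 125 probes passed on all arrays in the reference against 71 in CPE. With both channels required, 7 of 68 probes were higher and 17 lower, beside 1615 and 2030 of all 17945 such probes. The median log2 ratios were then −0.41 and 0.02. The part of signal over background in the counts and in the size of the ratios was not tested.

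**Figure D2:**
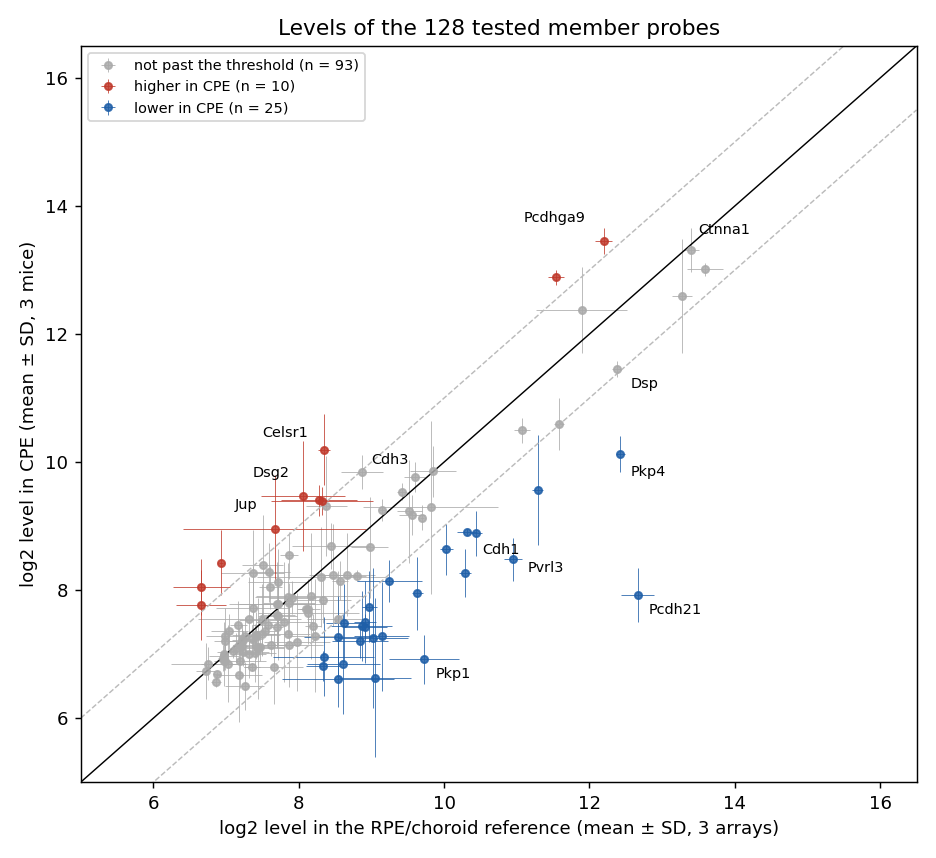
Normalised log2 level of the 128 tested probes in the reference (x axis) and in CPE (y axis), as mean ± SD of 3 arrays, with the line of equality and dashed lines at a 2-fold difference. Red points were higher in CPE (n = 10), blue points lower (n = 25) and grey points did not pass (n = 93), and the blue point farthest from equality is *Pcdh21*, at a log2 ratio of −4.74.

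**Figure D3:**
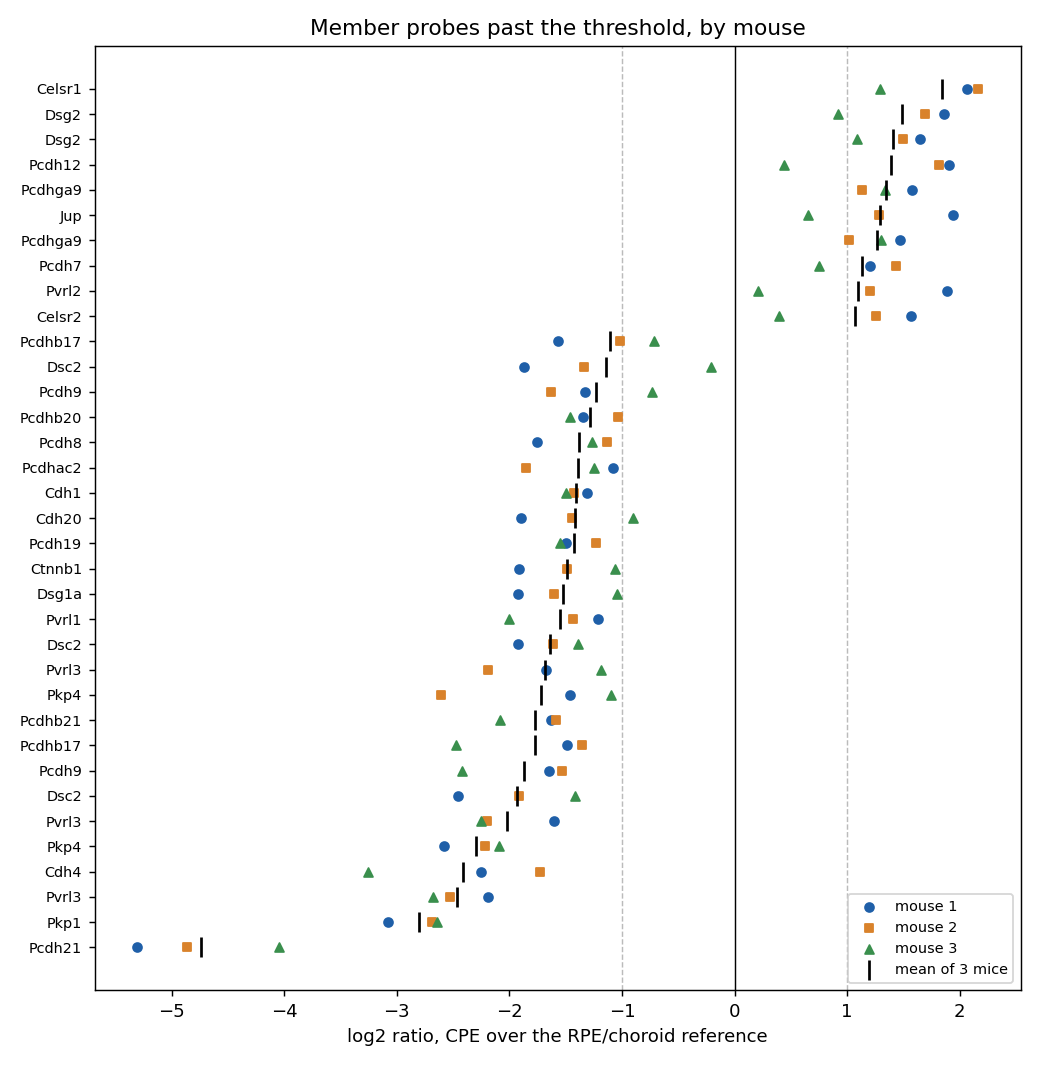
Log2 ratio of CPE over reference of the 35 probes past the threshold, each with its 3 mice (circle, square and triangle) and their mean (bar), ordered by the mean. Genes with several such probes appear several times, dashed lines mark a 2-fold difference, and in no probe do mice lie on both sides of 0.

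Among the classical cadherins, whose outer domains make the adhesive contact, 3 of 25 tested probes were lower and 22 did not pass. At an unadjusted p under 0.05, of any size and in either direction, there were 11. E-cadherin, *Cdh1*, the cadherin of most epithelia, was moderate in CPE at the 77.7th percentile. Its log2 ratios were −1.31, −1.43 and −1.50 in mice 1, 2 and 3, or 2.66-fold lower (mean −1.41, SE 0.15, limma's adjusted p = 0.00038). The 3 mice lay close together, and in each the reference was over 2-fold brighter. Under median centring the call was lost, at −0.90 (adjusted p = 0.054). P-cadherin, *Cdh3*, whose gene lies beside *Cdh1* on the same chromosome, was moderate at the 86.2nd percentile and had ratios of 1.51, 0.95 and 0.45. Its mean of 0.97 (SE 0.22, limma's adjusted p = 0.010) was just below 2-fold, and it was past the threshold without mouse 3, at 1.23 (adjusted p = 0.0042). *Cdh3* had the larger ratio of the pair in 3 of 3 mice, by 2.82, 2.37 and 1.95 (mean 2.38 ± 0.43, SD, n = 3). With 3 mice an exact two-sided sign-flip test cannot give a p under 0.25, which is the value it gave here. This pair and those below were chosen with results of these data known, so their direction is a description and not a test. The probe of *Cdh3* lies at chr8:109444722-109444782 and that of *Cdh1* at chr8:109559041-109559100, both on the plus strand of build mm8, and no annotation of that build was used, so exons are not given.

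N-cadherin, *Cdh2*, the main cadherin of neural tissue, was moderate at the 79.7th percentile on its brightest probe, with ratios of −0.68, −0.34 and −0.69 (mean −0.57, adjusted p = 0.025, less than 2-fold). Its other 2 probes were low, at 32.5 and 28.1, and were well above background in CPE of 1 mouse only. *Cdh11*, a cadherin best known from mesenchyme, was the single high member of the class, with percentiles of 90.4, 92.0 and 89.8 in the 3 mice and a ratio of −0.58 (adjusted p = 0.019, less than 2-fold), which turned to 0.087 under median centring. Its other probes were at 82.3 and 58.1. Of 6 stroma markers, 5 were in the high class of CPE. Against the reference, 5 of the 6 were lower and 1 did not pass (median −1.80). The log2 of their summed level ran from 14.2 to 14.4 in CPE. The part of stromal RNA in the values of *Cdh11* was not tested. E-, P- and N-cadherin and *Cdh11* were thus each well above background in CPE of all 3 mice on at least 1 probe.

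R-cadherin, *Cdh4*, first described in retina, had ratios of −2.25, −1.73 and −3.25 on one probe (mean −2.41, SE 0.27, adjusted p = 0.00050) and −0.12 on another tested probe. *Cdh20* likewise split, with −1.41 (SE 0.21, adjusted p = 0.0017) on one probe and 0.31 on the other. On the called *Cdh4* probe CPE was well above background in 2 of 3 mice and lay at the 1.01st percentile in mouse 3, which limits that ratio. Calls that rest on 1 of several probes of a gene are given here as values of that probe.

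VE-cadherin, *Cdh5*, the adhesion molecule of vessel endothelium, was moderate on both probes (81.4 and 68.1). Its ratios were 0.96, 1.50 and 0.35 on the brighter probe (mean 0.94, SE 0.23, adjusted p = 0.014) and 0.94, 0.60 and 0.52 on the other (mean 0.69, SE 0.16, adjusted p = 0.013), both less than 2-fold. Without mouse 3 the brighter probe was past the threshold, at 1.23 (adjusted p = 0.0040). All 8 endothelial markers were well above background in CPE of all 3 mice, and 2 of the 8 were higher than in the reference (*Eng* 1.21, *Tie1* 1.21), 1 was lower (*Vwf* −1.53) and 5 did not pass, with *Pecam1* at 0.95. The log2 of their summed level ran from 13.1 to 13.6 in CPE and from 13.4 to 13.6 in the reference. The part of endothelial RNA in the values of *Cdh5* was not tested.

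Most of the other classical cadherins were dim in CPE. Of the 37 probes of this class, 11 were well above background in CPE of all 3 mice, and *Cdh7*, *Cdh8*, *Cdh9*, *Cdh10*, *Cdh12*, *Cdh15*, *Cdh18* and *Cdh19*, largely cadherins of nervous tissue and muscle, had none among these. The cadherins of kidney and intestine, *Cdh16* and *Cdh17*, were low at the 23.2nd and 12.5th percentiles and were not tested. *Cdh23*, which forms the tip links of inner ear hair cells with *Pcdh15*, had probes at 51.7 and 39.9 that were each well above background in CPE of 1 mouse.

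The catenins, which bind the cadherin tails, held 3 of the 9 high probes, and of their 13 tested probes 1 was higher, 1 was lower and 11 did not pass. *Ctnna1*, the epithelial alpha-catenin that links the complex to actin, stood at the 99.0th, 98.6th and 99.1st percentiles in the 3 mice. Its ratio was −0.08 (SE 0.18, adjusted p = 0.74), with a sign that turned under median centring (0.77) and without mouse 2 (0.10). *Ctnnb1*, beta-catenin, which also carries Wnt signals to the nucleus, stood at 98.7 and 98.1 on 2 probes with ratios of −0.58 and −0.67, which were not past the threshold and turned to 0.29 and 0.14 under median centring. The remaining *Ctnnb1* probe, moderate at 53.5 and nearer the 5′ end than the others, was lower, with −1.91, −1.49 and −1.06 (mean −1.49, SE 0.19, adjusted p = 0.00097).

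Plakoglobin, *Jup*, a close relative of beta-catenin that serves both adherens junctions and desmosomes, was the catenin that was higher in CPE. Its ratios were 1.94, 1.28 and 0.65, or 2.45-fold (mean 1.29, SE 0.24, adjusted p = 0.0049), and its percentiles 74.6, 62.9 and 85.4. Without mouse 1 it was 0.97, just below 2-fold (adjusted p = 0.027). On this probe the reference, which is 1 RNA, read 7.11, 6.79 and 9.11 on the 3 arrays (log2, SD 1.26), which limits the value. The ratio of *Jup* was above that of *Ctnnb1* in 3 of 3 mice, by 1.87 ± 0.79 on the log2 scale (SD, n = 3, exact p = 0.25, the smallest possible). *Ctnnd1*, the p120-catenin that keeps cadherins at the membrane, had ratios of 0.68, 0.23 and 0.21 on 3 probes, none past the threshold, with percentiles of 71.8, 52.3 and 40.6.

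Of the catenins best known from neurons, *Ctnna2* was at 68.4 on its brightest probe, with a ratio of −0.58, and *Ctnnd2* at 58.0, with −0.99, both under 2-fold. *Ctnna3*, the alpha-catenin of heart and testis, was at 30.4 and 7.27 and was not tested. Of the genes that carry a catenin name without binding cadherins in the same way, *Ctnnal1*, alpha-catulin, was high at 97.7 on its 3′-most probe (ratio 0.48, adjusted p = 0.047, less than 2-fold, and 1.29 under median centring). Its other probes were moderate, at 80.4, 68.6 and 66.8, with ratios of −0.29, −0.11 and −0.43 that did not pass. *Ctnnbip1*, an inhibitor of beta-catenin, was at 86.6 with a ratio of 0.01, and *Ctnnbl1*, a protein of the spliceosome, at 85.6 with 0.17.

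**Figure D4:**
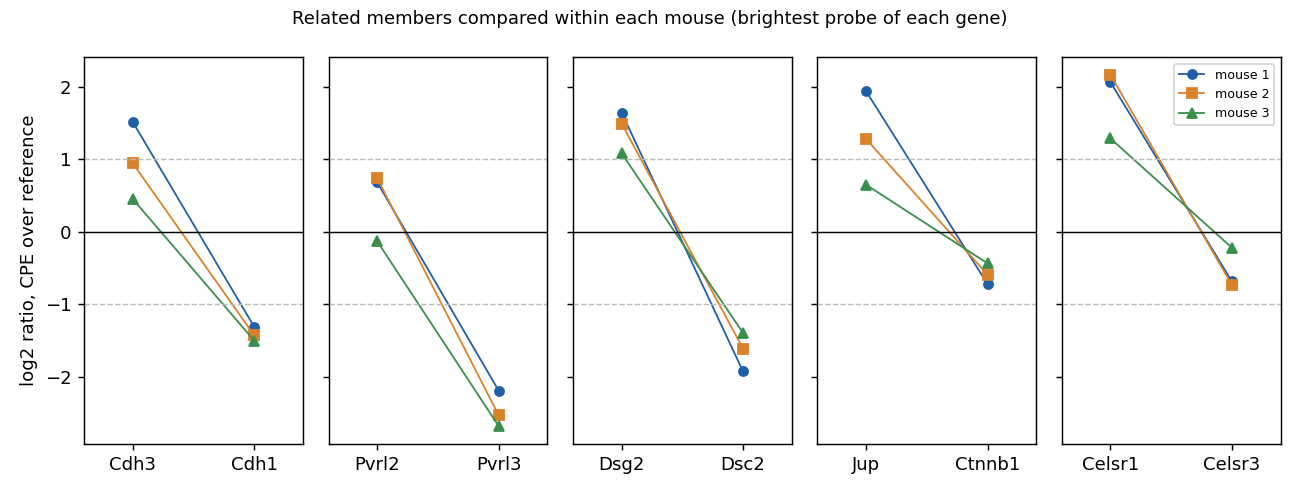
Log2 ratio of CPE over reference of 5 pairs of related genes in each of the 3 mice (lines join the 2 genes of a mouse, and the brightest probe stands for a gene). In each panel the left gene had the larger ratio in 3 of 3 mice, and dashed lines mark a 2-fold difference. The pairs were chosen with results of these data known, so this direction is no test.

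The nectins, which make the first contact between neighbouring cells, were called in both directions, with 1 of 8 probes higher and 4 lower. *Pvrl3*, now named *Nectin3*, was lower on each of its 3 probes. On the brightest the ratios were −2.19, −2.52 and −2.68 (mean −2.46, SE 0.17, adjusted p = 4.6e-05), or 5.51-fold, and the other probes gave −2.02 and −1.68. *Pvrl1*, now *Nectin1*, was lower too, with −1.21, −1.43 and −2.01 (mean −1.55, SE 0.19, adjusted p = 0.00074), although the adjusted p was 0.057 under median centring. Both kept a moderate level in CPE, at 73.9 and 77.9. *Pvrl2*, now *Nectin2*, was higher on its dimmer probe, with 1.89, 1.20 and 0.21 (mean 1.10, SE 0.29, adjusted p = 0.020), and stood at 0.43 (adjusted p = 0.14) on the brighter one. Without mouse 1 the dimmer probe was at 0.71 (adjusted p = 0.12), and it was below 2-fold without background correction (0.91) and under median centring (0.98). Its reference signal was well above background on 1 of the 3 arrays, which limits that ratio. On the brightest probes *Pvrl2* lay above *Pvrl3* by 2.89 ± 0.36 in 3 of 3 mice (SD, exact p = 0.25, the smallest possible). *Pvrl4* did not pass on either probe, at −0.49 and 0.10.

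The promoters of *Nectin2* and *Nectin3*, a pair called in opposite directions, and of *Celsr2* and *Cdhr1*, which were called in opposite directions too, are shown for the E-box CACCTG or CAGGTG, the letters that the cadherin repressors of the Snail and Zeb families are known to bind. Each runs 5′ to 3′ over the 250 bases before the gene's start, from RefSeq on build GRCm38.p6, with E-boxes in capitals. *Nectin2* is at chr7:19749574-19749823, *Nectin3* at chr16:46496968-46497217, *Celsr2* at chr3:108415580-108415829 and *Cdhr1* at chr14:37098348-37098597, all on the minus strand.
Nectin2: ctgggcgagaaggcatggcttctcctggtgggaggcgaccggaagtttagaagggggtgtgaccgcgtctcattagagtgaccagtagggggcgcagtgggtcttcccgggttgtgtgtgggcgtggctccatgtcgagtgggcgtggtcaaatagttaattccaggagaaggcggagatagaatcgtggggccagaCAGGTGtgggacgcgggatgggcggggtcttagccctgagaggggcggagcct
Nectin3: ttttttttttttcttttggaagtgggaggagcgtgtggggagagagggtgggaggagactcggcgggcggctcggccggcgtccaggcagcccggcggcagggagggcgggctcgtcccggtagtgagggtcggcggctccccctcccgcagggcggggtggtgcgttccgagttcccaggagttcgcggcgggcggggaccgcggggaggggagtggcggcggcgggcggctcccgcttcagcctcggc
Celsr2: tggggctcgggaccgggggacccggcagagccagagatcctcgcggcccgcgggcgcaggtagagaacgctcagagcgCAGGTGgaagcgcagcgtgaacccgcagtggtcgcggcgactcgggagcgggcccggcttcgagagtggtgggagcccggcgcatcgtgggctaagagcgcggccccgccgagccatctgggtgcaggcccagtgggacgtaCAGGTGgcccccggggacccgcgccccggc
Cdhr1: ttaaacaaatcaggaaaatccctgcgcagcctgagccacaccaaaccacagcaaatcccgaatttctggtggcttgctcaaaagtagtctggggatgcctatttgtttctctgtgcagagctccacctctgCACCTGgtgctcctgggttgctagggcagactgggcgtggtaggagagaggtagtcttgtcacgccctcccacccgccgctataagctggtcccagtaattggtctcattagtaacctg
*Nectin2* and *Celsr2*, higher in CPE, hold 1 and 2 E-boxes here, and *Cdhr1* and *Nectin3*, lower in CPE, hold 1 and 0. Of all 32851 promoters of the same length, 17.2% hold at least 1, and 8 of the 48 promoters found for 39 of the 99 genes do, with both strands searched. The letters TAATCC or GGATTA, which OTX and CRX factors are known to bind, are in 6.25% of all promoters and in none of these 4. Of the 8 genes higher in CPE, 4 had a promoter to search and 2 of these hold an E-box (*Celsr2* and *Nectin2*). Of the 18 lower genes, 8 had one and 2 hold an E-box (*Cdhr1* and *Pkp4*). These counts were not tested, and a match is a run of letters and not a site. Of the repressors themselves, *Snai1* was higher in CPE (1.56, adjusted p = 0.0021), *Zeb2* lower (−1.73, adjusted p = 0.00073), and *Snai2* (−0.50), *Zeb1* (−0.51) and *Twist1* (−0.22) did not pass.

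The proteins between the junction and actin were called in both directions as well. Of 18 such genes, 2 were higher, 4 were lower and 12 did not pass. On the brightest probe of each, afadin, *Afdn*, which binds nectins, was lower (−1.24), as were vinculin, *Vcl* (−1.18), the actin bundling protein *Lima1* (−1.53) and the scaffold *Tjp1* (−1.84). The other tested probe did not pass for *Vcl* (−0.17) and *Tjp1* (−0.03) and was lower for *Lima1* (−1.41). Other *Afdn* probes gave −2.35, which was lower, and −0.82, −0.14 and 0.41, which did not pass. Higher were the actin crosslinker *Actn1* (2.91) and the phosphatase *Ptprk* (1.61), which binds its like on the next cell. Other tested *Ptprk* probes gave 0.79, 0.44 and 0.34 and did not pass. In the turnover and output of beta-catenin, *Apc* (−1.44) and *Gsk3b* (−1.41), which mark it for breakdown, were lower, the transcription factor *Lef1* (2.38) was higher and 7 of 10 genes did not pass, *Axin2* among them at −0.07.

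In the desmosome, *Dsg2* was higher along with *Jup*, and the other called members were lower. *Dsg2*, the desmoglein of simple epithelia, had ratios of 1.64, 1.49 and 1.08 on its brightest probe (mean 1.41, SE 0.17, adjusted p = 0.00069), or 2.65-fold, with a percentile of 82.9. Another probe gave 1.49 (adjusted p = 0.0014), although its reference signal was well above background on 1 array. A further pair of probes gave 0.91 and 0.36 and did not pass. *Dsc2*, the desmocollin that usually pairs with *Dsg2*, was lower on 3 of 3 probes. Its brightest probe had −1.92, −1.61 and −1.39 (mean −1.64, SE 0.17, adjusted p = 0.00031) and lay at the 46.9th percentile, and another gave −1.14, which was −0.78 without mouse 1 (adjusted p = 0.10). On the probe at −1.14 CPE was well above background in 2 of 3 mice. On the remaining probe CPE was not well above background in any mouse, and the reference was at least 3.81-fold brighter (adjusted p = 0.00046), a bound equal to the measured fold because CPE read above the dimmest accepted signal on each array. The ratio of *Dsg2* exceeded that of *Dsc2* by 3.05 ± 0.55 in 3 of 3 mice (SD, exact p = 0.25, the smallest possible).

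The desmogleins and desmocollins of stratified epithelia were dim. *Dsg1a*, a desmoglein of skin, was lower (−1.92, −1.60 and −1.04, mean −1.52, SE 0.20, adjusted p = 0.00096) at the 21.8th percentile. CPE was well above background on this probe in 1 of the 3 mice, which limits the ratio. *Dsg1b*, *Dsg1c*, *Dsg3*, *Dsg4*, *Dsc1* and *Dsc3* lay between the 6.67th and 44.7th percentiles, were well above background in CPE of at most 1 mouse on any probe, and none was called.

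In the plaque, desmoplakin, *Dsp*, was high on 2 probes (95.5 and 91.6). Its ratios were −0.84, −0.97 and −0.95 on the brighter (mean −0.92, SE 0.15, adjusted p = 0.0026) and −0.69, −1.50 and −0.78 on the other (mean −0.99, adjusted p = 0.0066), both just under 2-fold. The second was past the threshold without mouse 1 (−1.14) and without mouse 3 (−1.10). Its 2 further probes lay at 41.7 and 27.5. *Pkp1*, a plakophilin of stratified epithelium, was 6.99-fold lower, with −3.08, −2.69 and −2.65 (mean −2.80, SE 0.16, adjusted p = 2.6e-05). *Pkp4*, which also binds classical cadherins, was lower on both probes (−2.30, adjusted p = 6.4e-05, and −1.72, adjusted p = 0.0025) and yet stood at the 88.8th percentile in CPE. *Pkp2*, the plakophilin of simple epithelia and heart, was at 80.0 with a ratio of −0.39 that turned to 0.083 under median centring, and *Pkp3* at 73.5 with 0.24.

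Of 8 partners of desmosomes, 4 were lower, 3 did not pass and 1 was not tested. Lower were the plakin proteins *Evpl* (−1.87) and *Ppl* (−2.10) and the keratins *Krt5* (−3.72) and *Krt14* (−2.63). In CPE *Krt5* was still in the high class, with percentiles of 94.5, 94.7 and 95.7 in mice 1, 2 and 3, and *Krt14* was moderate at 72.1. The keratins of simple epithelia stood at the 97.3rd (*Krt8*, ratio 0.30) and 98.3rd percentile (*Krt18*, ratio −0.76). The markers of squamous surface epithelium hold *Krt5* and *Krt14* too, so that list is not separate from these partners. Beside *Pkp1*, *Dsg1a* and *Dsc2*, 7 of these 12 markers were lower in CPE (median −2.17), 1 was higher (*Krt1*, 2.25) and 4 did not pass. The log2 of their summed level ran from 13.3 to 13.7 in CPE and from 16.2 to 16.5 in the reference. In CPE 3 of the 12 were in the high class, *Krt5* among them. The part of such cells in the reference was not tested.

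Of the seven-pass cadherins, which set the polarity of cells within a sheet and orient motile cilia, 2 of 3 genes were higher. *Celsr1* had the largest positive ratio among the tested probes of the 99 genes, with 2.06, 2.17 and 1.29 (mean 1.84, SE 0.21, adjusted p = 0.00047), or 3.58-fold, and the highest percentile of the 6 probes, 88.7. It was the 1 higher probe still called against a null of 2-fold in limma's treat test. *Celsr2* was higher on 1 of 3 probes, with 1.57, 1.25 and 0.39 (mean 1.07, SE 0.23, adjusted p = 0.0094), and gave 0.89 and 0.29 on the others. Without mouse 1 the first was 0.82 (adjusted p = 0.064) and without mouse 2 it was 0.98 (adjusted p = 0.010). *Celsr3*, the member best known from neurons, was at −0.54 and 0.07 and did not pass. The ratio of *Celsr1* lay above that of *Celsr3* by 2.38 ± 0.76 in 3 of 3 mice (SD, exact p = 0.25, the smallest possible). Of 9 planar polarity genes that act with these cadherins, 8 were tested and 0 were called. By limma's test 5 of the 8 had an adjusted p under 0.05 and 6 an unadjusted p under 0.05, all with less than 2-fold, and the ratios of the 8 ran from −0.91 (*Prickle2*) to 0.63 (*Dvl2* and *Fzd3*).

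*Foxj1*, the transcription factor of motile cilia, was 1 of 3 markers of astrocytes and ependyma, the ciliated lining of the ventricles. It was higher in CPE, with 3.65, 3.57 and 1.73 (mean 2.98, SE 0.36, adjusted p = 0.00063). *Aqp4* was lower (−1.28) and *Gfap* did not pass (0.44). The log2 of the summed level of the 3 markers ran from 11.3 to 12.3 in CPE and from 10.6 to 10.7 in the reference. The part of ependymal cells in the ratios of *Celsr1* and *Celsr2* was not tested.

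Among the other large cadherins and their partners, *Clstn3* was higher (1.32), *Clstn1* (−1.07), *Clstn2* (−2.56) and *Fat4* (−1.61) were lower, and 4 of the 8 tested did not pass. *Fat1* stood at the 94.3rd percentile with a ratio of 0.27.

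The non-clustered protocadherins gave the largest difference of all. *Pcdh21*, now named *Cdhr1*, a cadherin of photoreceptor outer segments, had ratios of −5.31, −4.87 and −4.04 (mean −4.74, SE 0.24, adjusted p = 1.5e-05), or 26.7-fold lower in CPE. Its normalised log2 level was 7.59, 7.79 and 8.39 in CPE and 12.9, 12.7 and 12.4 in the reference. The photoreceptor markers beside it had ratios from −6.37 (*Nrl*) to −4.15 (*Pde6b*), and the log2 of their summed level was 12.0 to 12.5 in CPE and 17.1 to 17.3 in the reference. The part of photoreceptor RNA in the reference was not tested.

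Also lower were *Pcdh9* on 2 of its 4 tested probes (−1.87 and −1.23), *Pcdh19* (−1.43, adjusted p = 0.00043) and *Pcdh8* (−1.38, adjusted p = 0.00087), all known from neurons. On the *Pcdh8* probe and the *Pcdh9* probe at −1.23, CPE was well above background in 2 of 3 mice, which limits those values. Of 6 neuronal markers, 3 were lower and 3 did not pass, and the log2 of their summed level ran from 11.0 to 11.3 in CPE and from 14.0 to 14.1 in the reference. The part of neuronal RNA in these ratios was not tested. *Pcdh7* was higher, with 1.21, 1.43 and 0.75 (mean 1.13, SE 0.18, adjusted p = 0.0024) at the 81.5th percentile, and fell just short of 2-fold without mouse 2, at 0.98. *Pcdh12*, a protocadherin of endothelium, was higher on 1 probe, with 1.90, 1.82 and 0.44 (mean 1.39, SE 0.28, adjusted p = 0.0074), where the reference was well above background on 1 array. The endothelial values given with *Cdh5* apply to it as well. *Pcdh1*, a protocadherin of epithelia, was at the 80.7th percentile with a ratio of 0.10. *Pcdh15* was not well above background in CPE of any mouse on either probe, and the reference was at least 1.82-fold (again the measured fold) and 1.64-fold brighter, with less than 2-fold on the fitted ratio.

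The clustered protocadherins are 3 rows of genes on chromosome 18, in which each alpha or gamma gene joins its own first exon to last exons that all genes of the row share, and beta genes have no shared exon. The array had 6 alpha, 29 beta and 10 gamma probes, of 32 genes. The pair of *Pcdhga9* probes at the far end of the row stood at the 99.1st and 98.5th percentiles, with ratios of 1.47, 1.01 and 1.30 (mean 1.26, SE 0.16, adjusted p = 0.00092) and 1.58, 1.13 and 1.34 (mean 1.35, SE 0.16, adjusted p = 0.00065). They overlap each other, so they are not independent. Another *Pcdhga9* probe just before them was at 70.1 and was not tested, with 1.59, 0.22 and 0.61. These 3 probes lie 70.2 to 71.8 kb beyond the last of the other gamma probes, and the remaining *Pcdhga9* probe, 102 kb from the last, was low, at 21.3. Of the 7 gamma probes before that gap, for 6 genes, 0 were well above background in CPE of all 3 mice, and their percentiles ran from 7.03 to 45.6. The bright pair carries the name of *Pcdhga9*, and which gamma genes it counts cannot be told apart from these values.

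**Figure D5:**
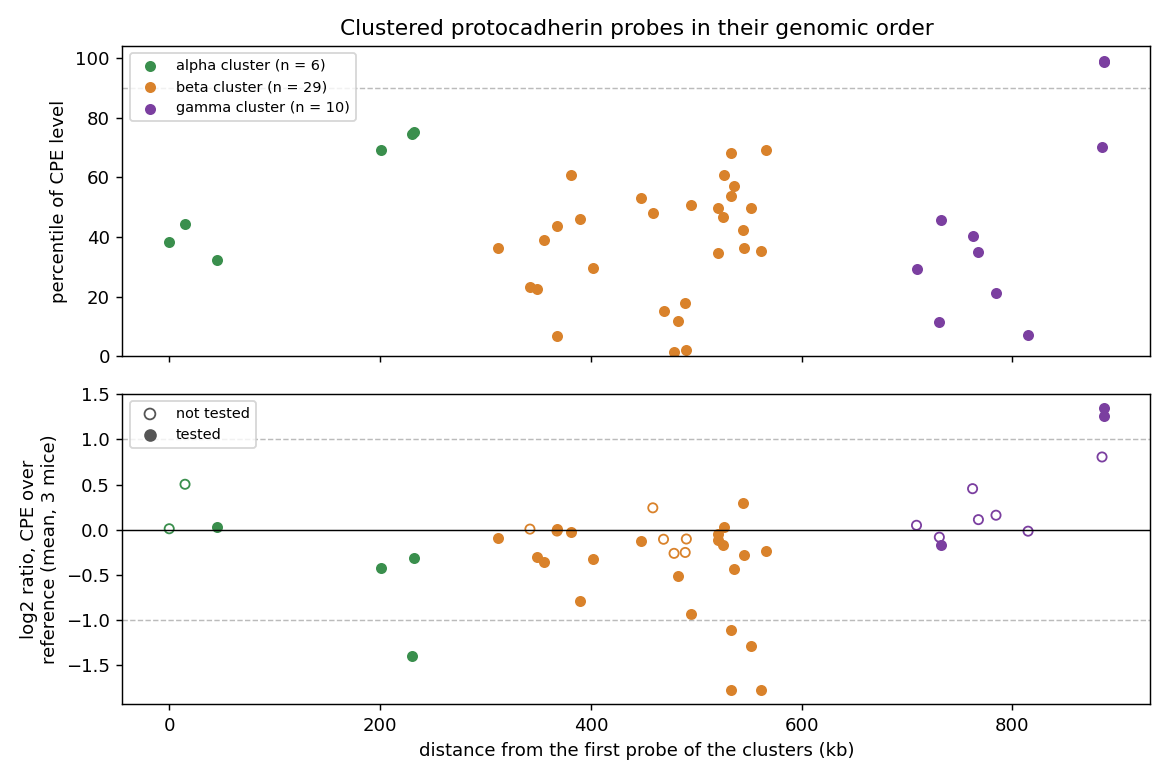
Percentile of the CPE level (top) and log2 ratio of CPE over reference (bottom) of the 45 clustered protocadherin probes, as means of 3 mice, against their distance from the first probe of the clusters in kb. Open circles in the bottom panel were not tested, dashed lines mark the 90th percentile and a 2-fold difference, and the 2 gamma probes at the right end, at 99.1 and 98.5, overlap in the top panel.

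In the alpha row, the 3 probes of *Pcdhac2* near its end were at 75.1, 74.5 and 69.3, and 1 of them was lower (−1.08, −1.85 and −1.25, mean −1.39, SE 0.19, adjusted p = 0.0012, and 0.052 under median centring), while the others were at −0.31 and −0.42. The alpha probes before them lay between 32.4 and 44.4. The *Pcdhac2* probe that was lower lies 230 kb from the first probe of the clusters, and the others lie at 232 and 201 kb. It is counted under the name of *Pcdhac2*, and which alpha genes it counts cannot be told apart from these values. Of the 29 beta probes, 0 were high, 6 were well above background in CPE of all 3 mice, and 4 of 22 tested were lower, for 3 genes. These were *Pcdhb17* on both probes (−1.10 and −1.77), *Pcdhb20* (−1.28) and *Pcdhb21* (−1.77). The brighter *Pcdhb17* probe was at −0.87 without mouse 1, below 2-fold, and lost its call under median centring, at −0.71 (adjusted p = 0.094). On the *Pcdhb21* probe CPE was well above background in 1 mouse, and on the *Pcdhb17* probe at −1.77 in 2 mice, which limits those ratios.

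Probes of 1 gene often differed. Of 32 genes with several tested probes, 24 had the same call on all and 8 had a mixture of called and uncalled probes, and no gene had a higher and a lower one. The 5 genes called on each tested probe were *Dsc2*, *Pvrl3*, *Pkp4*, *Pcdhb17* and *Pcdhga9*. The 2 tested probes of *Pcdhga9* overlap, so they are not independent. The widest ranges were those of *Cdh4* (2.29) and *Cdh20* (1.73).

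Between mice, 68 probes stood well above background on each array in CPE and reference alike, and they had a median SD of 0.38 in CPE and 0.28 in the reference, which is 1 RNA on 3 arrays, a ratio of 1.35. Over all 17945 such probes on the array the medians were 0.38 and 0.19. The ratio rested on the array of mouse 3: without it the value was 4.07, without mouse 1 1.50 and without mouse 2 1.11.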

How the data were processed

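CPE RNA of 3 mice, in Cy5, was hybridised against a common RPE and choroid RNA, in Cy3. The authors deposited scanner tables from Agilent's Feature Extraction (version 9.5.3.1), which hold each spot's intensity and background in both channels, its flags and a log10 ratio of red over green. Their flag columns (other values, 0 or 1) were used as deposited. The authors also deposited log2 levels normalized between arrays in R 2.14.0 with limma's Aquantile method. These followed the red channel (Spearman correlation over probes 0.998 to 0.999) and served as an alternative. Probe coordinates are in build mm8, for which no gene models were used here.

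Here R 4.3.3 and limma 3.58.1 were used. Spots flagged as controls or outliers were dropped and replicate spots averaged, which left 41174 probes. Classes ranked the log2 mean red intensity after Aquantile, without background correction, at the 90th, 50th and 10th percentile. Ratios came from normexp correction (offset 50) and loess within arrays. Probes well above background on 3 of 3 arrays in a channel were tested (25840) with lmFit and eBayes against 0 and Benjamini-Hochberg adjustment, and called at an adjusted p under 0.05 and 2-fold. The scripts were tested on simulated data. Bounds ("at least") hold the dimmer channel, per array, at the higher of its own signal and the lowest signal well above background, and equal the measured fold where its own signal is the higher.

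The brightest probe over both channels stands for a gene where pairs or lists are compared. Named are all genes with a high or called probe and 18 junction genes whatever their values, 36 in all. The number of arrays limits the precision. The reference was 1 RNA, so its own spread is not in the errors. Of the 177 probes, 126 had an accession in the RefSeq gene table (GRCm38.p6), and others keep the array's name. Members, gene lists, markers and gene pairs were chosen with earlier results of these data known. Slide could not be a block, because each array had its own.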

Additional observations from a re-analysis of the deposited data

How the results depend on the processing

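The counts of the report were 9 high, 10 higher and 25 lower probes. Leaving out each mouse in turn gave 9 to 10, 7 to 14 and 26 to 28. With 1 probe per gene there were 5 high and 6 higher probes, from fewer probes by construction, and ranking probes above background alone left 6 high. The scanner's own log ratio gave 38 lower, and limma's treat test against 2-fold gave 1 higher and 9 lower. Median centring in place of loess gave 13 higher and 23 lower, and it moved the share of higher among all called probes from 41.1% to 67.0% and the median ratio of all tested probes from −0.04 to 0.09. Under it, values not past the threshold changed sign for *Cdh11* (0.087), *Ctnna1* (0.77), *Ctnnb1* (0.29 and 0.14) and *Pkp2* (0.083). The cause was not tested. *Ctnna1* ran from −0.18 without mouse 1 to 0.10 without mouse 2. The spread of CPE over reference was 2.53 under median centring of each channel and 1.86 under quantile normalization, both chosen after seeing the data, and ran from 1.11 to 4.07 with a mouse left out. Loess followed by Aquantile leaves every ratio as it is by construction. Of 562 values of the named genes' ratios under the alternatives, 505 kept their direction and their side of the threshold. The 562 include the loess and Aquantile setting, which cannot move. They also include settings that reuse the same ratios, with no filter on dim probes or with 1 probe per gene. The share kept is therefore no measure of robustness. No paired analysis was possible because there was 1 group, and a slide block could not be fitted because each array had its own slide. Signal over background limits the low and very low probes, and 49 of the 177 probes were not tested.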

Other observations

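In 30 of the 99 genes, several tested probes of 1 strand lay at least 100 bases apart. The ratio of the 5′-most probe minus that of the 3′-most was set for each mouse against the mean of the other mice. It was lower in mouse 2 for 18 of the 30 genes, with a median difference of −0.10, and in mice 1 and 3 for 13 and 10, with medians of 0.16 and 0.21. The largest differences in mouse 2 were those of *Pkp4* (−1.45), *Cdh4* (−1.21), *Ctnnal1* (−1.17), *Pcdh9* (−1.10) and *Cdh11* (−1.03). Limma's array weights were 1.89, 0.95 and 0.55 for mice 1, 2 and 3. With these weights, 14 probes were higher and 25 lower, all 10 and all 25 of the report among them, and the added ones belonged to *Cdh3*, *Cdh5*, *Celsr2* and *Dsg2*.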
